A study of Sus scrofa with 20 samples.

Results

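The genes that write, remove and read DNA methylation were compared between backfat and liver of Nanchukmacdon pigs. They were chosen by name: 10 symbols were listed and 9 matched an identifier of the count table, which holds 31907 genes. TET2 had no identifier in the reference tables and is not analysed here. The 5 animals were boars of 22 months, per the labels, recorded as normal and wild type, and no treatment is named. Backfat is the subcutaneous fat of the back, and both tissues were taken as bulk pieces of tissue. Each tissue gave 5 libraries for RNA-seq (sequencing of poly(A) RNA) and 5 for WGBS (whole-genome bisulfite sequencing, in which unmethylated cytosines are read as thymine), 20 samples in all. Libraries are named here by tissue and by the boar number in the names of the deposited data.

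In mammals, DNA methylation is placed mainly on cytosines followed by guanine (CpG). DNMT3A and DNMT3B methylate new sites, and DNMT1 copies the pattern to the new strand after replication, to which UHRF1 recruits it by binding hemimethylated CpG. TET1, TET2 and TET3 oxidize 5-methylcytosine, and TDG, a DNA glycosylase, cuts out the most oxidized forms so that base excision repair can restore an unmodified cytosine. MBD2 binds methylated CpG and brings the NuRD repressor complex, while MBD4 joins a methyl-CpG binding domain to a glycosylase that removes the thymine left when 5-methylcytosine is deaminated.

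The TET genes differed in opposite directions. TET1 (chr14:71675671-71812732, plus strand, Sscrofa11.1) was higher in backfat, whereas TET3 (chr3:68918896-69020406, minus strand) was higher in liver. The sequence around the annotated start of each is shown with its CpG content. Each window runs from 250 bases before to 50 bases after the start of the RefSeq gene record, 5′ to 3′ on the strand of the gene, with CpG in capitals.
TET1, chr14:71675421-71675720, plus strand: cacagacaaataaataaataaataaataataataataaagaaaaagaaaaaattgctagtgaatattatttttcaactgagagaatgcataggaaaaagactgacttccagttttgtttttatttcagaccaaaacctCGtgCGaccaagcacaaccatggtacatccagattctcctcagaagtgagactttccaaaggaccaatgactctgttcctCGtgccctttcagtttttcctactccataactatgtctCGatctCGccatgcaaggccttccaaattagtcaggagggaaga
TET3, chr3:69020357-69020656, minus strand: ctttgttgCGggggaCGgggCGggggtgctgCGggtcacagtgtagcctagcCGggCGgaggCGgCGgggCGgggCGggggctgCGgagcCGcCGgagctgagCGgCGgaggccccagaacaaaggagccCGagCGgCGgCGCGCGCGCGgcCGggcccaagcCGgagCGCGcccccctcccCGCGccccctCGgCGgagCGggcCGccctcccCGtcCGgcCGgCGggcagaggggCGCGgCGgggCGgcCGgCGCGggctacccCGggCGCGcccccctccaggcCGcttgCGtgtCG
The TET3 window held 50 CpG, and 2.89% of 19556 RefSeq windows of the same length held as many. The TET1 window held 5, and 79.3% held as many, with a median of 16 over all windows. Among the others, MBD4 had 28 CpG, DNMT3B 25, TDG 14, DNMT1 6, UHRF1 4, DNMT3A 3 and MBD2 1. A record's start need not be the start used in these tissues. The TET1 record begins with the bases atg, the codon at which translation starts, so its window may lie downstream of the transcription start. The TET1 and TET3 windows may thus not be alike in position, and their CpG counts describe the annotation only. For TET1 the RefSeq exons covered 6488 bases and the counted exons 9377. The methylation data used here carry no genomic position, and methylation of these windows was not analysed.

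Between 43820042 and 61772737 read pairs per library fell on genes. Values are CPM (counts divided by library size, scaled by TMM, edgeR's trimmed mean of M-values), and fold changes are backfat over liver on the log2 scale. Marker sums, here and later, are CPM without TMM scaling. Calls required an adjusted p no larger than 0.05 (edgeR's quasi-likelihood test, Benjamini-Hochberg over 16275 genes). The 5 libraries of a tissue came from different boars. Hepatocyte markers (6 genes) summed to 17065 to 66554 CPM in liver, against 199 to 665 in backfat, and adipocyte markers (6 genes) to 11053 to 17653 CPM in backfat, against 9.62 to 11.3 in liver, so both tissues carried the markers of their label. Liver 67 stood apart, with the lowest hepatocyte sum of the liver libraries and 44.5% of its counts on mitochondrial genes, against 6.38% to 20.2% in the other 9 libraries. Backfat 65 had the highest sums of lymphocyte markers (124 CPM, 6 genes) and skeletal muscle markers (561 CPM, 3 genes). In bulk tissue, fewer cells of a type and less RNA per cell cannot be told apart.

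Of the 9 genes, TET1, MBD2 and MBD4 were higher in backfat, TET3 was higher in liver, and the other 5 were not called. Of all genes tested, 55.0% were called, 28.0% as higher in backfat and 27.0% as higher in liver, so 4 of 9 is not above the background. With scaling by library size alone the split of all genes was 8225 higher in backfat and 2329 higher in liver, against 4557 and 4398 with TMM, and the median over all genes moved to 0.71 (log2). The median of the 9 genes was 0.47 with TMM, beside 0.00 for all genes. None of the 9 passed a log2 fold change of 2 in either direction, which 22.3% of genes passed while also being called. TET1, at 1.95, lay just under that limit.

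**Figure D1:**
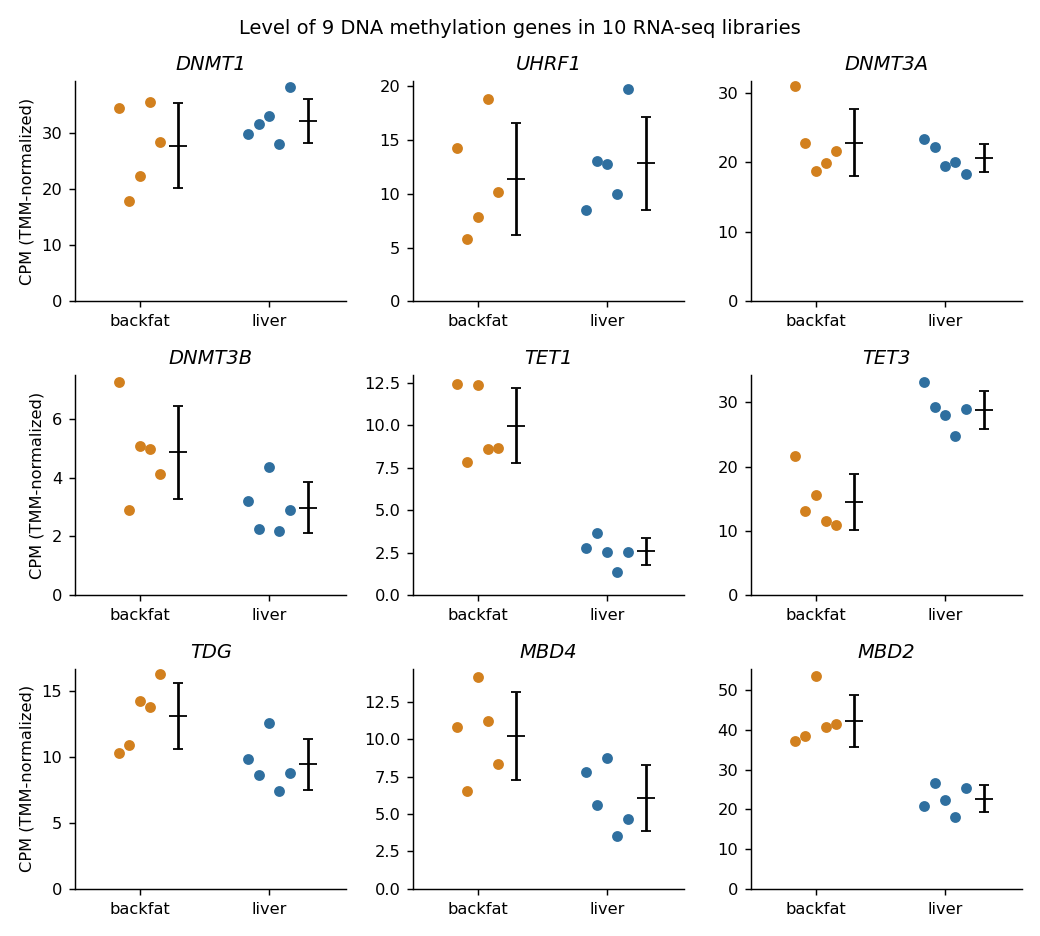
CPM of the 9 genes in each RNA-seq library, with the 5 backfat and the 5 liver libraries each drawn from left to right as boars 65, 67, 69, 71 and 72, and a bar for the mean and SD of each tissue (each axis starts at 0 and has its own scale). The tissues are separate for TET1, TET3 and MBD2, and their ranges overlap for the other 6 genes.

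Among the writers, DNMT1 did not differ detectably. The maintenance methyltransferase (chr2:68981564-69040364) stood at 34.5, 17.9, 22.3, 35.4 and 28.3 CPM in backfat of boars 65, 67, 69, 71 and 72, and at 29.8, 31.5, 33.0, 28.0 and 38.2 CPM in liver of the same boars. In backfat, 2 libraries lay under the liver range and 3 lay inside it. The log2 fold change was -0.21 (SE 0.20, 95% interval -0.64 to 0.22, adjusted p = 0.383). UHRF1 (chr2:73898061-73937727), its partner at hemimethylated sites, read 14.3, 5.78, 7.82, 18.8 and 10.1 CPM in backfat and 8.53, 13.1, 12.7, 9.95 and 19.8 CPM in liver. The ranges overlapped, with backfat 67 and backfat 69 under each liver library. The log2 fold change was -0.17 (SE 0.32, 95% interval -0.88 to 0.53, adjusted p = 0.673). The interval for UHRF1 is wide and leaves room for a difference in either direction. Its exons share 155 bases with ARRDC5 on the other strand, which averaged 0.00531 CPM in backfat and 0.0158 CPM in liver. By library size alone both signs turned, to 0.50 for DNMT1 and 0.55 for UHRF1, and neither was called. Without backfat 67 or liver 72 the value for UHRF1 was at 0.0024 and 0.0053.

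DNMT3A and DNMT3B, the de novo methyltransferases, were not called either. DNMT3A (chr3:113501972-113609148) measured 31.1, 22.8, 18.8, 19.8 and 21.6 CPM in backfat and 23.3, 22.3, 19.5, 20.0 and 18.4 CPM in liver. Apart from backfat 65, the libraries of both tissues lay together, and the log2 fold change was 0.14 (SE 0.17, 95% interval -0.22 to 0.50, adjusted p = 0.490). DNMT3B (chr17:36345715-36386076) was far less abundant, at 7.25, 2.91, 5.10, 4.97 and 4.13 CPM in backfat and 3.19, 2.27, 4.35, 2.18 and 2.90 CPM in liver. Its value was the larger one in backfat in 5 of 5 boars, but the ranges overlapped. The log2 fold change was 0.71 (SE 0.30, 95% interval 0.07 to 1.35) and the adjusted p of 0.0585 lay just above the threshold. Leaving out backfat 67 or liver 69 brought DNMT3B past it, at 0.85 and 0.88, as did DESeq2, at 0.69 with an adjusted p of 0.0375. By library size alone both were called as higher in backfat, DNMT3A at 0.87 (adjusted p = 0.0042) and DNMT3B at 1.40 (adjusted p = 0.00347).

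Among the erasers, TET1 had the largest fold change of the 9. It measured 12.4, 7.87, 12.4, 8.61 and 8.65 CPM in backfat of boars 65, 67, 69, 71 and 72, and 2.79, 3.65, 2.53, 1.36 and 2.55 CPM in liver. Each backfat library was above each liver library, as was true of 22.9% of genes tested. The mean was 9.99 ± 2.22 CPM in backfat and 2.57 ± 0.818 CPM in liver (SD, n = 5 each), a 3.87-fold difference (log2 fold change 1.95, SE 0.27, adjusted p = 6.3e-05). The liver values rest on 43 to 135 read pairs per library.

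TET3 ran the other way. It stood at 21.6, 13.1, 15.6, 11.5 and 10.9 CPM in backfat and at 33.1, 29.2, 28.1, 24.8 and 28.9 CPM in liver, so that every liver library was above every backfat library, as in 19.7% of genes tested. The mean was 28.8 ± 2.98 CPM in liver and 14.5 ± 4.36 CPM in backfat (SD, n = 5 each), with a log2 fold change of -0.99 (SE 0.20, adjusted p = 0.00106). By library size alone this became -0.26 with an adjusted p of 0.385, which is -0.97 from the median of all genes under that scaling. TET3 shares 144 exonic bases with LOC102163719 on the other strand, a gene not matched to the count table, and the counting did not use strand.

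A ratio within a library does not depend on the scaling between libraries. Per kilobase of counted exon, the TET1 to TET3 ratio was 0.740, 0.775, 1.02, 0.969 and 1.02 in backfat and 0.109, 0.161, 0.116, 0.0707 and 0.114 in liver. In backfat the genes were thus near equal per counted length, and in liver TET3 was the more abundant in every library. For TET1 the RefSeq exons covered 6488 bases against 9377 counted. The size of the ratio, though not its comparison between tissues, depends on that length. The mean ratio was 7.94 times as high in backfat (0.906 ± 0.137 against 0.114 ± 0.0320, SD, n = 5 each). It is a description with no test, since it was built from the values above.

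TDG (chr5:80473233-80492295) measured 10.3, 10.9, 14.3, 13.8 and 16.3 CPM in backfat and 9.90, 8.64, 12.6, 7.42 and 8.82 CPM in liver. The backfat value was the larger in 5 of 5 boars, with overlapping ranges, and the log2 fold change of 0.47 (SE 0.20, 95% interval 0.04 to 0.90) had an adjusted p of 0.0589. TDG passed the threshold without backfat 65 (0.55), backfat 67 (0.54) or liver 69 (0.59), and by library size alone (1.14). Its exons overlap those of GLT8D2 on the other strand by 732 bases. GLT8D2 measured 36.7 ± 6.47 CPM in backfat and 2.21 ± 0.976 CPM in liver (SD, n = 5 each), and the counting did not use strand, so reads of the pair cannot be told apart where they overlap. The part of GLT8D2 in the TDG values was not tested.

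Of the readers, MBD2 (chr1:103683077-103768372) was higher in backfat. It measured 37.2, 38.5, 53.6, 40.6 and 41.5 CPM in backfat and 20.9, 26.6, 22.3, 18.2 and 25.3 CPM in liver, with no overlap. The means were 42.3 ± 6.56 and 22.6 ± 3.37 CPM (SD, n = 5 each), a 1.87-fold difference (log2 fold change 0.90, SE 0.16, adjusted p = 0.000399). The call and direction of TET1 and MBD2 held under each of the 18 alternative analyses run, and those of TET3 under 17. TET3 lost its call by library size alone, which moved the median of all genes to 0.71, toward backfat. Holding under that setting is thus no check on a gene higher in backfat.

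MBD4 (chr13:68816677-68828559), the glycosylase, read 10.8, 6.54, 14.2, 11.2 and 8.35 CPM in backfat and 7.81, 5.59, 8.77, 3.51 and 4.64 CPM in liver. It was the larger in backfat in 5 of 5 boars, although backfat 67 and backfat 72 fell within the liver range. The log2 fold change was 0.75 (SE 0.29, 95% interval 0.13 to 1.38, adjusted p = 0.0419). The call was lost on leaving out any 1 of 6 libraries, at 0.74 without backfat 65, 0.61 without backfat 69, 0.72 without backfat 71, 0.69 without liver 67, 0.58 without liver 71 and 0.63 without liver 72, where the adjusted p lay between 0.0702 and 0.104.

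**Figure D2:**
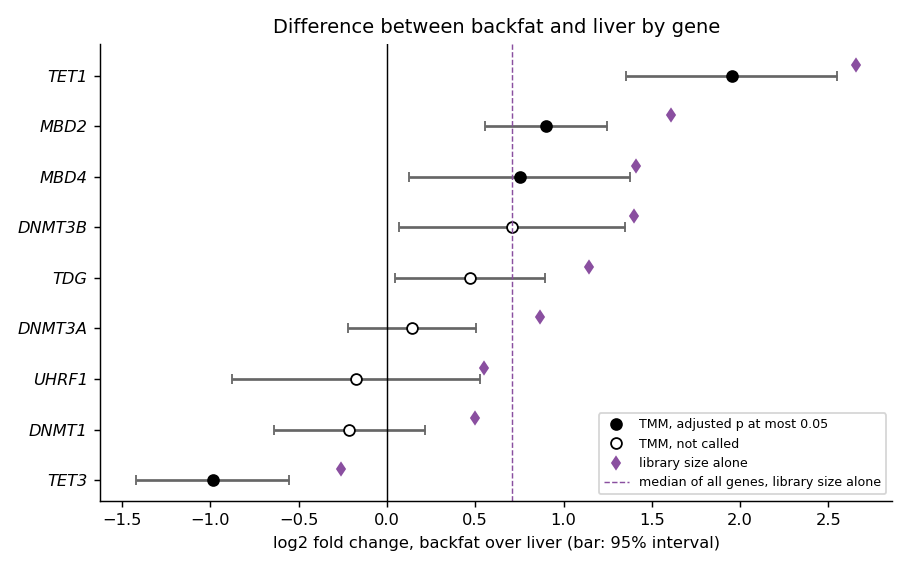
Log2 fold change (backfat over liver) of the 9 genes with 95% intervals, filled where the adjusted p was at most 0.05; diamonds give the values with library size alone and the dashed line the median of all genes under it. TET1 lies at 1.95 and TET3 at -0.99, and each gene sits about 0.7 higher under library size alone.

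Divided by counted exon length, levels can be set beside each other between genes, but the order depends on the annotation. Counted and RefSeq exons covered 5879 and 17086 bases for DNMT3A, 5912 and 3535 for MBD4, and 4571 and 3202 for TDG. The TDG level may also hold reads of GLT8D2. The order with RefSeq lengths was not computed. In backfat the order of mean CPM per kilobase was MBD2 (7.54), DNMT1 (4.68), DNMT3A (3.88), TDG (2.87), UHRF1 (2.62), MBD4 (1.73), TET3 (1.20), TET1 (1.06) and DNMT3B (0.561). Only MBD2 against DNMT1 and TET1 against DNMT3B were neighbours without overlapping ranges. In liver the order was DNMT1 (5.42), MBD2 (4.04), DNMT3A (3.52), UHRF1 (2.95), TET3 (2.38), TDG (2.07), MBD4 (1.03), DNMT3B (0.343) and TET1 (0.275), and only the steps from TDG to MBD4 and from MBD4 to DNMT3B were free of overlap. The MBD2 to DNMT1 ratio per length was 1.14, 2.27, 2.54, 1.21 and 1.55 in backfat and 0.742, 0.892, 0.716, 0.686 and 0.698 in liver, with no overlap. MBD2 was thus above DNMT1 in each backfat library and under it in each liver library. By contrast, the UHRF1 to DNMT1 ratio was alike in mean, at 0.539 ± 0.113 in backfat and 0.535 ± 0.116 in liver (SD, n = 5 each), and the DNMT3B to DNMT3A ratio ranged from 0.0866 to 0.183 in backfat and from 0.0690 to 0.151 in liver.

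DNMT1 and UHRF1 varied together among libraries of the same tissue. After the tissue mean was taken from each log2 value, their correlation over the 10 libraries was 0.939, the highest of the 36 pairs of members, followed by 0.763 for DNMT3B with MBD4. Backfat 71 and liver 72 had the highest UHRF1 of their tissues, and backfat 67 and liver 65 the lowest. Among 11590 other genes, the nearest to UHRF1 were ESPL1 (0.976), which encodes separase, MCM3 (0.943), a subunit of the replicative helicase, and RACGAP1 (0.941), which acts in cytokinesis. Among the nearest to DNMT1 were ESPL1 (0.945) and DLGAP5 (0.889), a spindle protein. A list of 13 cell cycle genes, MCM3 among them, lay on average 0.63 above the tissue mean in backfat 71 and 0.59 under it in backfat 67 (-0.59 on the log2 scale), and was at 0.35 in liver 72 and -0.42 in liver 65. These values share library and depth across genes and are a description with no test.

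**Figure D3:**
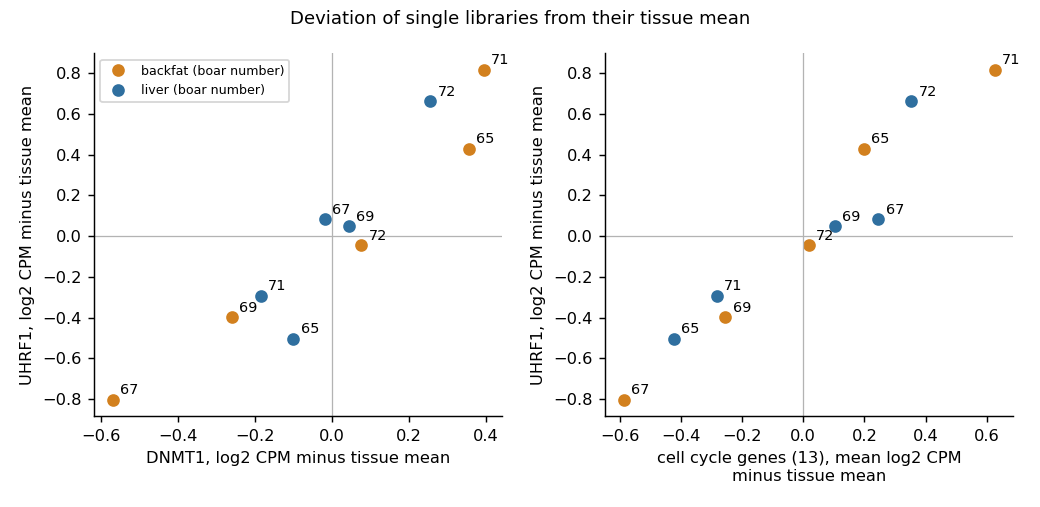
Log2 CPM of UHRF1 minus its tissue mean for each of the 10 libraries (labelled by boar number), against the same for DNMT1 on the left and against the mean of 13 cell cycle genes on the right. Backfat 67 lies lowest and backfat 71 highest in both panels.

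Beside these genes stand the methylation levels of the same tissues, which were taken as the percent of cytosine calls read as methylated. Each library had between 535962875 and 670743546 CpG calls. The labels also name a kit that enriches methylated DNA, and whether the sequenced DNA had been enriched is not given in the sources used here, so the percentages may not stand for the whole genome. CpG methylation was 76.4%, 76.9%, 78.4%, 77.7% and 77.6% in backfat of boars 65, 67, 69, 71 and 72, and 69.9%, 71.1%, 71.6%, 71.8% and 70.7% in liver. All 5 backfat libraries were above all 5 liver libraries, by 6.39 points in the mean (77.4% ± 0.792 against 71.0% ± 0.760, SD, n = 5 each, two-sided exact permutation test, p = 0.00794, adjusted over the 3 contexts 0.0119). This p is the smallest that 5 against 5 libraries can give. Outside CpG, levels were under 1% in every library. Cytosines left unconverted by bisulfite are also read as methylated. Their part in the levels outside CpG, and in the tissue differences there, was not tested. CHG (H being A, C or T) was 0.611% ± 0.0300 in backfat and 0.577% ± 0.0233 in liver, with overlapping ranges (SD, n = 5 each, exact permutation p = 0.0873). CHH was 0.567% ± 0.0169 in backfat and 0.518% ± 0.0153 in liver, without overlap (SD, n = 5 each, exact permutation p = 0.00794, adjusted 0.0119). Levels outside CpG depended on the read ends. Without the 10 positions at each end, CHG was 0.389% in backfat and 0.360% in liver, and CHH was 0.317% in backfat and 0.273% in liver, while CpG was 77.6% and 71.2%. The CHH difference was then 0.0437 points and still without overlap. When the boars were taken as pairs, an exact sign-flip test returned p = 0.0625 in each context, the smallest that 5 pairs allow.

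The tissue with more CpG methylation, backfat, thus had more TET1 and MBD2 and less TET3 mRNA. It also had more MBD4 mRNA, with overlapping ranges and a call that was lost on leaving out any 1 of 6 libraries. DNMT3B (0.71, adjusted p = 0.0585) and TDG (0.47, adjusted p = 0.0589) leaned toward backfat just short of a call in edgeR's quasi-likelihood test. DNMT1, DNMT3A and UHRF1 mRNA did not separate the tissues. Whether expression and methylation are related across boars was not tested.

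**Figure D4:**
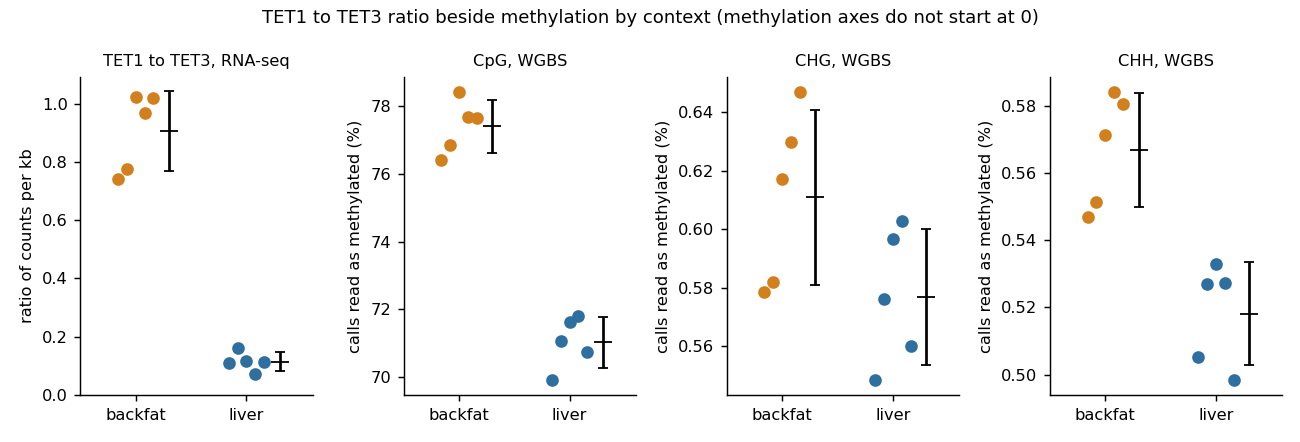
TET1 to TET3 ratio per exon length in the RNA-seq libraries (first panel) beside the percent of CpG, CHG and CHH calls read as methylated in the WGBS libraries, with boars 65 to 72 from left to right in each tissue and bars for mean and SD; the methylation axes do not start at 0. Ratio, CpG and CHH separate the tissues, and CHG does not.

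Genes that work with the writers were called in both directions with TMM. Of 10 maintenance and targeting partners, 2 were higher in backfat, 3 were higher in liver and 5 were not called, with a median log2 fold change of -0.06. The share called was 50%, beside 55.0% of all genes tested. DNMT3L, the catalytically inactive relative that stimulates DNMT3A, was higher in backfat (2.21, SE 0.54, adjusted p = 0.00407) at low levels, 1.72 ± 0.406 against 0.374 ± 0.335 CPM (SD, n = 5 each). CDCA7 (1.34) was also higher in backfat, whereas HELLS, the chromatin remodeller that CDCA7 recruits, was higher in liver (-1.10). NSD1 (-0.62) and SETD2 (-0.48), which methylate histone H3 at lysines read by the de novo enzymes, were higher in liver too. Scaling by library size alone called 6 of this list, each as higher in backfat, and HELLS, NSD1 and SETD2 were not called. The call of SETD2 was also lost with boars as a block (-0.47, adjusted p = 0.0933) and without backfat 69 (-0.48), backfat 71 (-0.40), backfat 72 (-0.44), liver 65 (-0.49), liver 69 (-0.47), liver 71 (-0.46) or liver 72 (-0.44).

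The share called was 28.6% among the other methyl-CpG readers and 45.5% among the NuRD subunits, beside 55.0% of all genes tested. By direction, 28.0% of all genes were higher in backfat and 27.0% higher in liver. Of 7 other readers, 2 were higher in backfat, MBD5 (1.12) among them, and 5 were not called. Of 11 NuRD genes, 4 were higher in backfat, CHD3 (1.83), MTA3 (1.15) and HDAC2 (1.01) with the largest changes, and CHD4 was higher in liver (-0.81). CHD3 and CHD4 are alternative ATPases of the complex, at 211 ± 16.6 and 108 ± 16.5 CPM in backfat and at 59.6 ± 28.4 and 190 ± 43.04 CPM in liver (SD, n = 5 each). The median was -0.03 over the readers and 0.20 over NuRD. By library size alone 5 readers and 8 NuRD genes were called, all as higher in backfat, and CHD4 was not among those higher in liver.

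Beside TDG and MBD4, 12 other genes of base excision repair, further glycosylases among them, had a median of -0.27. Of these, 3 were higher in liver, 1 was higher in backfat and 8 were not called. With 33.3% called, this list was under the 55.0% of all genes tested. NEIL1, a glycosylase for oxidized bases, was at 62.3 ± 18.4 CPM in liver and 6.40 ± 1.21 CPM in backfat (SD, n = 5 each, log2 fold change -3.28, adjusted p = 3.1e-07). POLB, the polymerase that fills the gap, and NTHL1, another glycosylase, were higher in liver at -1.14 and -0.80. PARP1, which senses strand breaks, was higher in backfat at 0.48, a call lost without backfat 65 (0.41), backfat 71 (0.46), liver 71 (0.45) or liver 72 (0.46). Under library size alone the split of this list was 4 higher in backfat and 2 higher in liver, its median was 0.45, and NTHL1 was not called.

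Among the related lists, the largest differences lay among genes that make, spend or recycle the methyl donor, S-adenosylmethionine. Of 17 genes of the methionine and folate cycles, 10 were higher in liver, 2 were higher in backfat and 5 were not called, with a median of -2.06. The share called was 70.6%, beside 55.0% of all genes tested, 27.0% of all being higher in liver. Under library size alone 5 of the 17 were higher in backfat and the list median was -1.36. A stricter filter, of 10 counts or more per library, left 14 genes, MAT1A, BHMT and NNMT not among them, with a median of -0.96. MAT1A, the liver form of the enzyme that makes the donor, averaged 666 CPM in liver and 0.340 CPM in backfat (-10.93). BHMT, which remethylates homocysteine from betaine, averaged 1539 CPM in liver (-11.89). NNMT, which spends the donor on nicotinamide, averaged 213 CPM in liver (-11.33). In backfat BHMT had 118 read pairs in backfat 69 and 0 to 2 in each other library, and backfat 69 also had the highest hepatocyte marker sum of its tissue, 665 CPM. The part of that library in the BHMT value was not tested. MAT2A, the form most other tissues use, was not called (0.25, SE 0.50), whereas MAT2B, its regulatory subunit (0.70), and AHCYL2 (2.17) were higher in backfat.

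TET enzymes use 2-oxoglutarate and iron, are helped by ascorbate, and are inhibited by fumarate, succinate and 2-hydroxyglutarate. Of 12 genes of this group, 6 were higher in liver, 1 was higher in backfat and 5 were not called, with a median of -0.46. The share called, 58.3%, was near the 55.0% of all genes tested. The ascorbate transporter SLC23A1 (-5.18) and the mitochondrial enzymes IDH2 (-1.73) and FH (-1.27) were higher in liver. By library size alone the split of this group was 5 higher in backfat and 3 higher in liver.

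Of the 13 cell cycle genes, TOP2A was higher in backfat (1.02), BIRC5 was higher in liver (-0.96) and 11 were not called. That is 15.4% called, under the 55.0% of all genes tested. BIRC5 lost its call with boars as a block (-0.84), by library size alone (-0.21), and without backfat 65 (-0.93), backfat 67 (-0.83), backfat 69 (-0.92), backfat 72 (-0.95), liver 67 (-0.69) or liver 72 (-0.90). Endothelial markers summed to 1024 to 1731 CPM in backfat, against 192 to 422 in liver (5 genes), fibroblast markers to 30288 to 58647, against 337 to 619 (5 genes), and macrophage markers to 373 to 769, against 538 to 815 (6 genes). These sums are without TMM. With TMM, 4 macrophage markers were called as higher in liver and 2 were not called, with a median log2 fold change of -1.17. The part of these cell types in the values above was not tested.

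**Figure D5:**
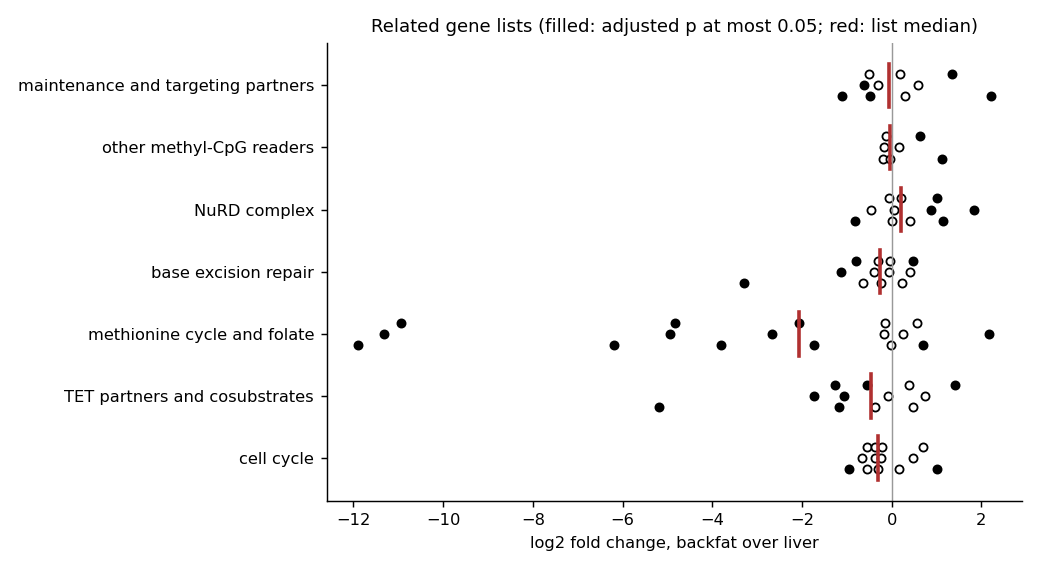
Log2 fold change (backfat over liver) of each gene in 7 related lists, filled where the adjusted p was at most 0.05, with the list median in red. The methionine and folate list reaches -11.89 at the liver end and has a median of -2.06.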

How the data were processed

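The authors trimmed WGBS reads with Trim Galore and mapped them with Bismark to Sscrofa11.1, per the labels and the methods. The deposited M-bias values are numbers of methylated and unmethylated calls by read position, which were summed per library and context. RNA-seq reads were aligned with HISAT2 and counted by the authors with featureCounts 2.0.1 on Ensembl release 99, unstranded, and the deposited values are raw counts of read pairs, with the exon length of each gene. Symbols were matched through Ensembl identifiers. R 4.3.3 was used with edgeR 4.0.16 (filterByExpr, TMM, quasi-likelihood test, tissue as the only term), and limma 3.58.1 and DESeq2 1.42.0 served as alternatives. The study's tool was DESeq2. The scripts were tested on simulated data. From each related list, up to 3 called genes per direction with the largest change are named; some genes that the rules name are not reported here. For likeness, 0.5 was added to CPM before the log2, and candidates had a mean of at least 1 CPM. The members and lists were chosen with earlier results of these data known. Boar numbers come from the library names and were taken to mark the same animal. Deviations of same-numbered libraries correlated at 0.0359 to 0.226, and for boars 67 (0.0945) and 69 (0.0359) another boar's library correlated better (0.106 and 0.152). Intervals cover the spread between libraries only.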

Additional observations from a re-analysis of the deposited data

Results flagged for a closer look

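In groups of 5 libraries, 38 sets of values were examined for a library far from the rest, which chance gives in about 1 of 20 groups, and 2 were found. MBD2 was at 53.6 CPM in backfat 69, with the other 4 backfat libraries between 37.2 and 41.5 CPM. The MBD2 to DNMT1 ratio per exon length was 0.892 in liver 67, with the other 4 liver libraries between 0.686 and 0.742.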

How the results depend on the processing

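With library size alone the log2 fold change was 0.50 for DNMT1 and 0.55 for UHRF1, both turned and neither called. DNMT3A (0.87), DNMT3B (1.40) and TDG (1.14) became called and TET3 (-0.26) was no longer called, while the median of all genes stood at 0.71. That setting scales no library for its composition. DESeq2 called DNMT3B at 0.69. Over leave-one-out analyses the log2 fold change ranged from -0.31 to -0.08 for DNMT1, from 0.01 to 0.21 for DNMT3A, from 0.53 to 0.88 for DNMT3B, from 1.76 to 2.07 for TET1, from -1.17 to -0.89 for TET3, from -0.42 to 0.0053 for UHRF1 (0.0024 without backfat 67), from 0.37 to 0.59 for TDG, from 0.80 to 0.95 for MBD2 and from 0.58 to 0.92 for MBD4, and 3 to 6 of the 9 genes were called. MBD4 lost its call at 0.74, 0.61, 0.72, 0.69, 0.58 and 0.63 without backfat 65, 69 and 71 and liver 67, 71 and 72, DNMT3B gained one at 0.85 and 0.88 without backfat 67 and liver 69, and TDG at 0.55, 0.54 and 0.59 without backfat 65 and 67 and liver 69. The cause of these changes was not tested. With the replicate block (boar), no member's call changed and 8781 genes were called, against 8955. For methylation, pairing by boar kept the differences of 6.39 points (CpG) and 0.0487 points (CHH) but allows no p below 0.0625. The total of called genes ranged from 6941 to 10680. In liver, DNMT3B and TET1 had at most 205 and 135 read pairs per library.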
